A study of Mus musculus with 66 samples.

Results

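Of 94469 regions in the union of ATAC and histone mark peaks of mouse small intestinal organoids, 593 carried less H3K27me3 in the stem cell-enriched culture (CV) than in both other cultures. They were chosen from the H3K27me3 scores alone. Each of the 6 scores in ENR and EN lay above each of the 3 scores in CV, the mean of those 6 scores was at least 15, and that mean plus 1 was at least 2.5 times the CV mean plus 1. The difference in H3K27me3 between CV and the other cultures is therefore given below as a description of the choice, without a test. The tests concern ATAC, H3K27ac, H3K4me3 and RNA. Calls in H3K27me3 between ENR and EN are given as a description, since the rule used those scores as well.

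All cultures were Lgr5 GFPDTR/+ organoids and shared a medium with epidermal growth factor and Noggin. ENR, the conventional culture with a mixture of cell types, also had R-Spondin-1. CV was ENR with CHIR99021 (3 μM), an inhibitor of GSK3 that activates Wnt signalling, and valproic acid (1 mM), an inhibitor of histone deacetylases, and EN was ENR without R-Spondin-1, which favours differentiation toward enterocytes. The tables held 4 libraries per culture for ATAC-seq and RNA-seq, 3 for ChIPmentation of each histone mark and 1 for ChIPmentation of Hnf4g. CV differed from ENR in both added compounds at once. By the paper's methods, CV was also kept in its medium for longer than EN. Because the cultures also hold different mixtures of cells, the compounds, the time in medium and the makeup of the culture cannot be told apart. In these bulk samples, neither can fewer cells that carry a mark and less of the mark per cell. Nothing in the labels says whether same-group libraries came from separate cultures, so p-values measure the spread between libraries, which may be technical.

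H3K27me3 is placed by Polycomb repressive complex 2, whose catalytic subunit is Ezh2 or Ezh1, and is typical of silent CpG-rich promoters of developmental regulators. Polycomb repressive complex 1 can bind the mark through its Cbx subunits, and the demethylases Kdm6a and Kdm6b remove it. H3K4me3 marks promoters that are active or poised, and a promoter with both H3K4me3 and H3K27me3 is called bivalent. H3K27ac occupies the same lysine as H3K27me3, so 1 histone tail cannot carry both, and it marks active promoters and enhancers together with open chromatin, which ATAC-seq measures.

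The 7 sequences below show the kind of DNA that was involved. They are read from the plus strand of mm9 (NCBIM37), at the middle of the region and at most 300 bases long, and capitals mark CpG dinucleotides. The Hoxc6 region had the largest ratio (15.3), and its sequence, chr15:102829703-102830002, lies in an intron and holds 18 CpG. The Hspb1 (chr5:136363614-136363913, 15 CpG) and Plod2 (chr9:92437047-92437346, 37 CpG) sequences lie in regions that overlap the start site of the gene and are shown because RNA of these genes rose in CV. The Lef1 sequence (chr3:130814399-130814698, 25 CpG) lies in an exonic region of a Wnt effector. The Gli1 (chr10:126779157-126779367, 211 bases, 7 CpG) and Vim (chr2:13496020-13496316, 297 bases, 25 CpG) sequences come from stretches with several such regions. The Gm16260 sequence (chr14:100684145-100684444, 14 CpG) is distal, in a region 65008 bp from the nearest start site.
Hoxc6: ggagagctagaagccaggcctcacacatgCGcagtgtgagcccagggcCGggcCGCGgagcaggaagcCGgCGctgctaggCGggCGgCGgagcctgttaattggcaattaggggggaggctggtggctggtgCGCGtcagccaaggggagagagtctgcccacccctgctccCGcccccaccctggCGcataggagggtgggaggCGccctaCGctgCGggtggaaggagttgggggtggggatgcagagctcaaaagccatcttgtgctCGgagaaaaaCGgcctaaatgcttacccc
Hspb1: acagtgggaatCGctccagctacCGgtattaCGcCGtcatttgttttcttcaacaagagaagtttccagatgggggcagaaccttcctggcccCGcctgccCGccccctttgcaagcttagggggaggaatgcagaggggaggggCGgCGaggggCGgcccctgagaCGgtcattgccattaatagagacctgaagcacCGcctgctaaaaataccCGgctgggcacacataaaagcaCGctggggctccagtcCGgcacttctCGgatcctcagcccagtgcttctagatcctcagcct
Plod2: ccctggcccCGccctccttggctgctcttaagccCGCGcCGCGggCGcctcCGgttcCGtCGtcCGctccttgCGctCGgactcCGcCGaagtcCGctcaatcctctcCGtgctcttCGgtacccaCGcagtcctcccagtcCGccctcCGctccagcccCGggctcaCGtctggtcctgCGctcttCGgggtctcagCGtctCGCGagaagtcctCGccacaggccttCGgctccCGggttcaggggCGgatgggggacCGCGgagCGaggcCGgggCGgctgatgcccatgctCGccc
Lef1: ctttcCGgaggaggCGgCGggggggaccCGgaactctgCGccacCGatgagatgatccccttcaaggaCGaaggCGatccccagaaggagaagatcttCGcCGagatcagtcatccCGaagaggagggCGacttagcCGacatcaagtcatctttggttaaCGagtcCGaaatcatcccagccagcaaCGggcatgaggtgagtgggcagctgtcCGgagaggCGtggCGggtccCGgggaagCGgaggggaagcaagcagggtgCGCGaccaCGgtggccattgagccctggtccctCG
Gli1: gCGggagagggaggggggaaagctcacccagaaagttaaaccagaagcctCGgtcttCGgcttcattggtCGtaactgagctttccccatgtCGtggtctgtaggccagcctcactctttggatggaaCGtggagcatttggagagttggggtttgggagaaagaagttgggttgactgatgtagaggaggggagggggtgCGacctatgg
Vim: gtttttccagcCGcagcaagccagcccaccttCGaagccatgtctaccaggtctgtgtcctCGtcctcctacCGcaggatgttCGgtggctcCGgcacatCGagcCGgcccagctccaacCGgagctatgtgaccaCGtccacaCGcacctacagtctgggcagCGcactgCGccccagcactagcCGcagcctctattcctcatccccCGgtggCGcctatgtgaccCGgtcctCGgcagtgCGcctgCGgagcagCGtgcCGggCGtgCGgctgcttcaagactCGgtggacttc
Gm16260: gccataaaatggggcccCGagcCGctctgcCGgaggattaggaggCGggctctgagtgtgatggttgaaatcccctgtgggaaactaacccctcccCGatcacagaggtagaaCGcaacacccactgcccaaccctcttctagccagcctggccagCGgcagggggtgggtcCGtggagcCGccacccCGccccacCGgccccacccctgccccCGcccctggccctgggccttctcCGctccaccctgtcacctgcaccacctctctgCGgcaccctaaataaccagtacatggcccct

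The 593 regions were spread over 20 chromosomes and fell into 415 loci when regions less than 10 kb apart were joined. Of these loci, 302 held a single region and 113 held at least 2, with 291 regions among them. The centres of 203 regions lay within 1000 bp of the centre of another. H3K27me3 was counted by the authors in windows extended around each region, so such neighbours share reads and are not independent. The rule ratio ran from 2.5 to 15.3, with a median of 3.86 and quartiles of 3.14 and 5.09. Mean scores in ENR and EN ran from 15 to 186 (median 34.5), and mean scores in CV from 1.33 to 44 (median 7.67). At the threshold, 5 regions had a ratio of exactly 2.5, nearest to Npl, Rassf2, Grik4, Klb and Abcd4. Among the regions just outside it were those nearest to Rhcg (2.49) and Dmbx1 (2.4875). A further 154 regions met the separation and the minimum mean but not the ratio. The rule found 1090 regions without CV2, 908 without CV3 and 962 without EN2, and 894 with scores scaled to the same sum per library.

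In CV, these regions had about the H3K27me3 score of an ordinary region of the table. Their median score was 3, 8 and 8 in CV1, CV2 and CV3, where the median of all regions was 5, 8 and 8. In ENR2, ENR3 and ENR4 it was 31, 48 and 36, against 6 in each library for all regions. In EN1, EN2 and EN4 it was 27, 26 and 30, against 9 in each. The regions took 0.406% ± 0.062 (SD, n = 3) of the summed H3K27me3 score in CV, 2.53% ± 0.47 in ENR and 1.57% ± 0.10 in EN. Between CV and the other cultures, though not from ENR to EN, ATAC and the 2 active marks ran the other way in the same regions. Their share of the ATAC score was 0.696% ± 0.017 (SD, n = 4) in CV, 0.366% ± 0.0096 in ENR and 0.313% ± 0.022 in EN. For H3K27ac it was 0.525% ± 0.030 (SD, n = 3), 0.210% ± 0.041 and 0.185% ± 0.024 in the same order, and for H3K4me3 1.18% ± 0.18, 0.921% ± 0.10 and 0.578% ± 0.13. The CV libraries lay above all ENR and EN libraries in each of these 3 assays. Scores are read counts per region that the authors normalized and rounded to whole numbers. They summed to between 817265 in an H3K4me3 library and 2109261 in an ATAC library, and RNA libraries held 5630951 to 8859744 counts.

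**Figure D1:**
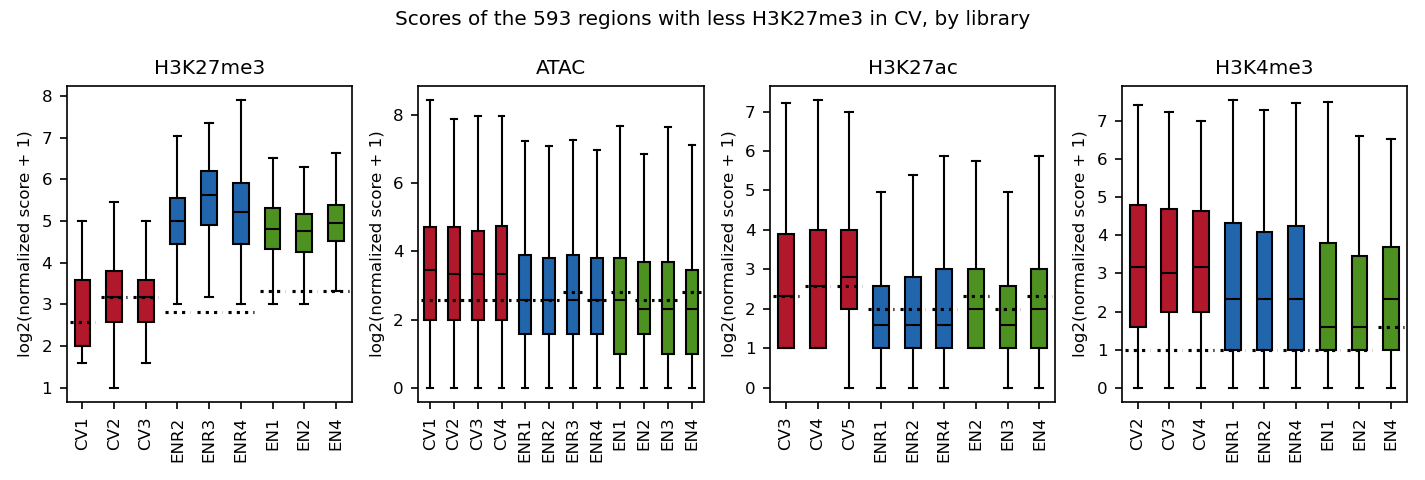
Box plots of log2(normalized score + 1) over the 593 regions in each library of H3K27me3, ATAC, H3K27ac and H3K4me3 (red CV, blue ENR, green EN). Boxes span the quartiles with a line at the median, whiskers reach the last value within 1.5 interquartile ranges, values beyond are not drawn, and dotted lines are the median of all regions of the table in that library. H3K27me3 in CV is low by the choice of regions, near the dotted line, and in each of the 3 other assays the median of every CV library is above that of every ENR and EN library.

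The regions lay near start sites and were CpG-rich more often than the other regions of the table, which the rule did not use. Of the 593, 294 (49.6%) lay within 500 bp of an annotated start site and 482 (81.3%) within 5 kb, compared with 19.2% and 39.2% of all annotated regions. Among the 12021 other annotated regions with a mean H3K27me3 score of at least 15 in ENR and EN, the shares were 28.8% and 49.5%. The median GC content of 1000 bp around the centre was 58.1%, against 50.6% in those other marked regions and 47.0% in all. The ratio of observed to expected CpG had a median of 0.60, against 0.37 and 0.23. A window with a GC content of at least 50% and a CpG ratio of at least 0.6, called CpG-island-like here, was found at 281 regions (47.4%), compared with 25.9% of the other marked regions and 12.8% of all. Both properties met in 200 regions, while 218 had neither. Exons were touched by 51.4% of the regions, against 29.7% of the other marked regions and 21.3% of all. In the same order, introns alone were touched by 22.9%, 31.2% and 38.9%, and 25.6%, 39.1% and 39.8% were intergenic. The regions are longer (median 335 bp, against 223 bp and 220 bp), which the shares by start site and exon do not correct for. Of the 593, 15 lay more than 50 kb from any start site.

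The opposite set looked different. The 960 regions that met the mirrored rule, with more H3K27me3 in CV, had a start site within 500 bp in 4.91% of cases, were CpG-island-like in 1.67% and were intergenic in 58.6%. The letters of 2 short motifs were searched on both strands of the 1000 bp windows. ATCAAAG, the core bound by the Wnt effectors of the Tcf and Lef family, was present in 75 regions (12.6%), against 12.3% of the other marked regions and 15.7% of all. CAAAGTCCA, a motif of the Hnf4 family that overlaps the other in the letters CAAAG, was present in 8 (1.35%), against 1.86% and 3.59%. These are counts of letters and say nothing of binding.

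**Figure D2:**
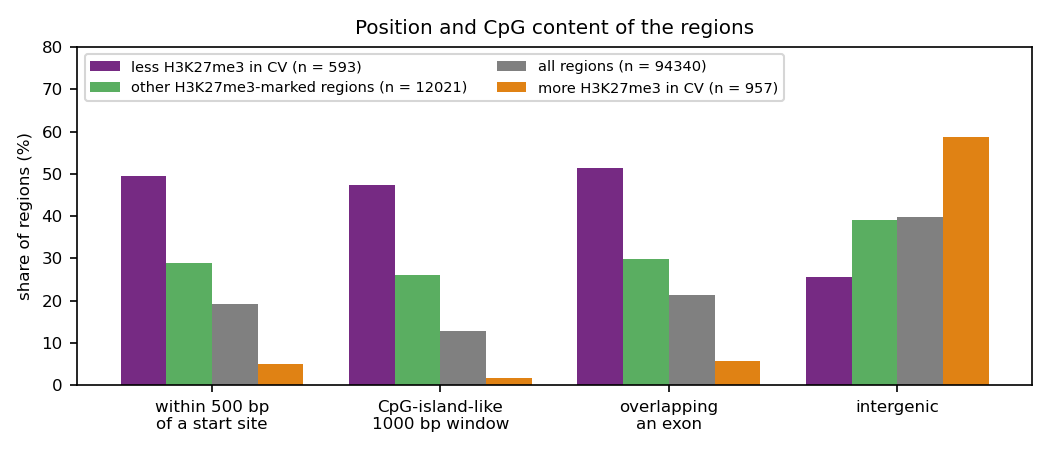
Bars give the share of regions (in percent) within 500 bp of a start site, with a CpG-island-like window, overlapping an exon, or intergenic, for the 593 regions with less H3K27me3 in CV, 12021 other regions marked in ENR and EN, 94340 regions on annotated chromosomes and 957 of these with more H3K27me3 in CV. The regions with less H3K27me3 in CV stand highest in the first 3 properties (49.6%, 47.4% and 51.4%) and lowest in intergenic position (25.6%).

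Genes of developmental regulators were common nearest to them. By the nearest protein-coding gene, 16 regions in 9 loci belonged to Hox genes, which set position along the body axis, or 2.70% of the 593 compared with 0.112% of all annotated regions and 0.574% of the other regions marked in ENR and EN. The 11 Hox genes were Hoxa3, Hoxa7, Hoxa13, Hoxb3, Hoxb4, Hoxb6, Hoxb9, Hoxb13, Hoxc5, Hoxc6 and Hoxd4, so all 4 clusters were touched. A further 45 regions in 25 loci (7.59%, against 0.893% and 3.32%) lay nearest to 23 genes of other homeobox families, among them Msx1, Msx2, Msx3, Lhx6, Pax6 and Dlx1. Ligand genes accounted for 14 regions (2.36%, against 0.545% and 1.20%), nearest to Wnt1, Wnt10a, Wnt11, Bmp6, Fgf9 and Gdf11. Sox, Fox, Gata and Tbx families had 8 regions (1.35%, against 0.810% and 1.41%, so no larger a share than among the other marked regions) and basic helix-loop-helix families 5 (0.843%, against 0.270% and 0.666%). No region lay nearest to the stem cell genes Lgr5 or Sox9. Of the lists of cell type markers, 2 had a gene nearest to such a region, Vim in the mesenchymal list and Pou2f3 in the tuft cell list.

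Accessibility was higher in CV at 283 of these regions and lower at 9. With limma on log2(score + 1), the 283 of 592 regions tested (47.8%) exceeded the mean of ENR and EN at an adjusted p under 0.05 (Benjamini-Hochberg over all regions), while 11.2% of all regions were called in that direction. The 9 lower ones stood against 17.5% of all. The median log2 difference was 0.68 over these regions and -0.06 over all. In 184 regions every CV library lay above every ENR and EN library (background 4.57%), and in 2 every CV library lay below (background 5.93%). The calls higher in CV fell in 224 of the 415 loci. Of the other regions marked in ENR and EN, 1439 of 11990 were called higher, and of the mirrored set 20 of 946. At the stricter threshold that the study used, 57 were higher and 1 lower.

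The 2 active histone marks followed with fewer calls. H3K27ac was higher in CV at 96 of 593 regions (16.2%), against 1.88% of all regions, and lower at 1 (background 3.58%). H3K4me3 was higher in CV at 106 of 582 regions tested (18.2%), against 1.53%, and lower at 1 (background 1.29%). The latter, nearest to the pseudogene Rpl21-ps7 and named after its values were seen, scored 0 in the CV and ENR libraries and 1 in each EN library. CV libraries lay above all others in 119 regions for H3K27ac (background 3.86%) and in 200 for H3K4me3 (background 3.64%). They lay below all others in 0 and 1 regions (background 3.5% and 1.37%). Over all regions the median log2 difference was itself 0.24 for H3K27ac and 0.14 for H3K4me3, and over these regions it was 0.85 and 0.77, so the regions stood 0.62 and 0.63 above the general shift. The H3K27ac count was 58 without CV3, 34 without CV5, 57 without ENR1, 63 without ENR4, 58 without EN2 and 47 without EN3. It was 13 at the stricter threshold that the study used, 58 after quantile normalization and 0 when the spread was not fitted as a trend on the mean. The H3K4me3 count was 16 without ENR2 or without ENR4, 59 without CV3, 62 without CV4 and 166 without EN1, and 0 at the stricter threshold.

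Calls in different assays met in part of the regions. Of the H3K27ac calls higher in CV, 67 were also ATAC calls (69.8% of the H3K27ac calls and 23.7% of the ATAC calls). Of the H3K4me3 calls, 68 were also ATAC calls (64.2% and 24.0%). All 3 were higher in CV at 28 regions in 27 loci, at least 1 at 343 regions in 255 loci, and none at 250. How often calls met over all regions was not counted, so these overlaps are a description only. The 28 include regions nearest to Plod2, Hspb1, Crip2, Hoxc6, Lhx6, Nkx6-1, Rbpms and Slc43a1. Within 500 bp of a start site, ATAC was called higher at 160 of 294 regions (54.4%, against 11.9% of all such regions), H3K27ac at 72 (24.5%, against 2.76%) and H3K4me3 at 69 of 293 (23.5%, against 3.17%). Farther away the counts were 123 of 298 (41.3%, against 11.0%), 24 of 299 (8.03%, against 1.67%) and 37 of 289 (12.8%, against 1.05%). Of the 16 Hox regions, ATAC was higher at 10, H3K4me3 at 6 and H3K27ac at 1, and of the 45 regions of other homeobox genes at 23, 10 and 8.

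**Figure D3:**
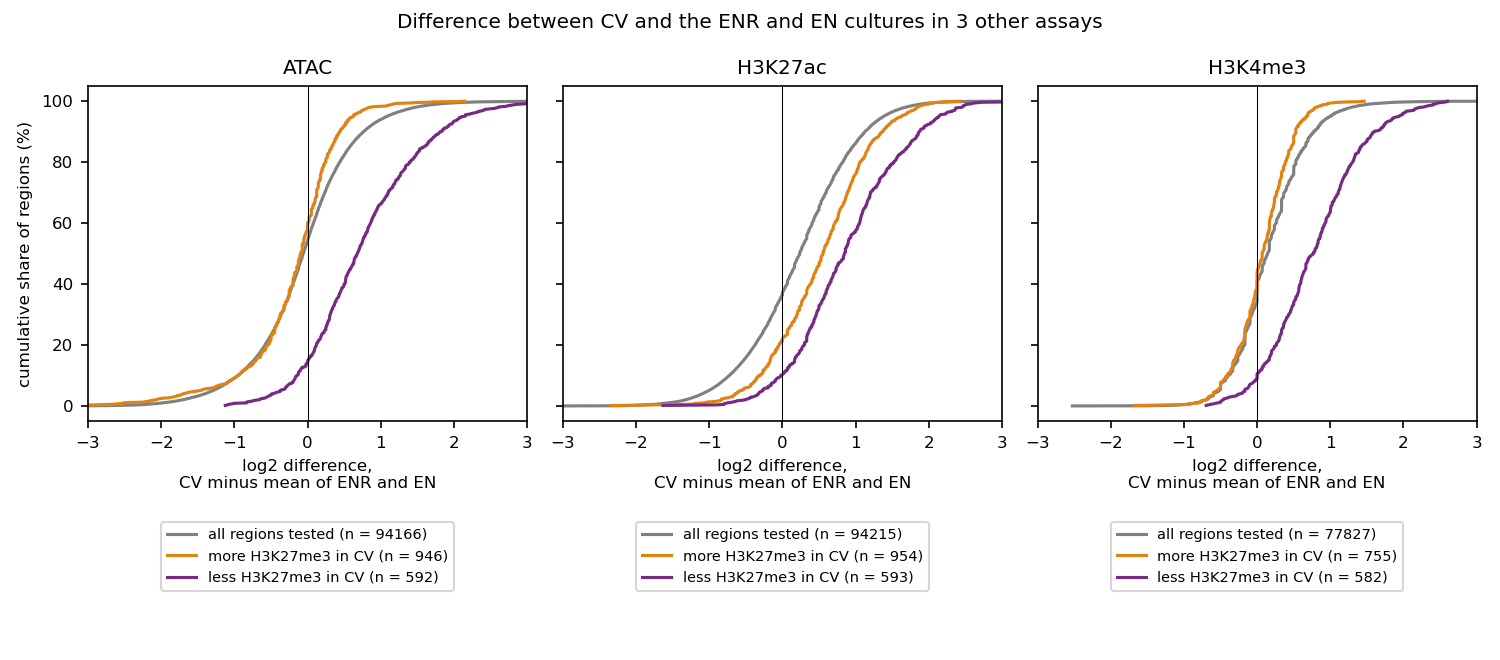
Cumulative share of regions (percent) by the log2 difference between CV and the mean of ENR and EN in ATAC, H3K27ac and H3K4me3, for all regions tested (grey), regions with more H3K27me3 in CV (orange) and the regions with less (purple). The purple curve lies to the right of both others in all 3 assays, with medians of 0.68, 0.85 and 0.77, while the grey medians are -0.06, 0.24 and 0.14.

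Plod2, which encodes a lysyl hydroxylase that modifies collagen, had the largest ATAC difference. The region chr9:92436728-92437664 overlaps its start site and its first exon and scored 12, 11 and 11 for H3K27me3 in CV, 33, 65 and 79 in ENR and 53, 26 and 29 in EN. Its ATAC score was 152, 118, 90 and 106 in CV, 14, 10, 18 and 10 in ENR and 3, 4, 13 and 6 in EN, so CV was far above both other cultures, which overlapped (log2 difference 3.60, standard error 0.27, limma adjusted p = 4.3e-08). H3K4me3 scored 53, 33 and 42 in CV, 11, 11 and 18 in ENR and 11, 6 and 6 in EN (1.99 ± 0.26 SE, adjusted p = 0.025). H3K27ac scored 6, 38 and 36 in CV, 5, 4 and 4 in ENR and 2, 2 and 3 in EN, with 1 CV library close to the other cultures (2.37 ± 0.55 SE, adjusted p = 0.0073). A second region in the first intron, chr9:92437726-92437899, was also higher in CV in all 3 assays.

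At Hspb1, which encodes a small heat shock protein, the region over the start site (chr5:136363521-136364005) scored 11, 6 and 6 for H3K27me3 in CV, 49, 65 and 14 in ENR and 43, 17 and 30 in EN. ATAC scored 17, 15, 23 and 29 in CV against 2 in each ENR library and 1 or 2 in EN (2.98 ± 0.25 SE, adjusted p = 1.5e-07). H3K27ac at 34, 17 and 11 in CV was also above the other cultures, where the highest score was 4 (2.49 ± 0.54 SE, adjusted p = 0.0036). The Fst region (chr13:115248415-115250112), over the start site of the gene for follistatin, an activin antagonist, gave the largest H3K27ac difference. It scored 144, 46 and 115 in CV, 6, 12 and 4 in ENR and 6, 16 and 4 in EN (3.52 ± 0.47 SE, adjusted p = 9.1e-06). H3K4me3 there was 92, 86 and 73 in CV and 78, 66 and 99 in ENR, with overlapping values, and the test was not passed (0.36 ± 0.21 SE, adjusted p = 0.47).

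Slc43a1, an amino acid transporter gene, and Rbpms, an RNA-binding protein gene, followed in H3K27ac. The Slc43a1 region (chr2:84679635-84681127) scored 52, 80 and 67 for H3K27ac in CV against 3 to 16 in ENR and 3 to 6 in EN (3.23 ± 0.47 SE, adjusted p = 3.2e-05), and its H3K4me3 score of 67, 57 and 66 in CV was 25, 22 and 24 in ENR and 8, 11 and 10 in EN. The Rbpms region (chr8:35039479-35041131) scored 84, 48 and 59 for H3K27ac in CV, 6, 14 and 7 in ENR and 4, 9 and 16 in EN. Both overlap start sites, and in both the CV libraries stood clear of all others. Gm13334 (chr2:18611260-18611846) was the fourth by size of the H3K27ac difference (2.65 ± 0.60 SE, adjusted p = 0.0059).

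The other 3 of the largest ATAC differences lay away from start sites. The region 65008 bp from Gm16260 (chr14:100683713-100684875), whose nearest protein-coding gene is Klf12, scored 214, 172, 173 and 185 for ATAC in CV, 20, 21, 27 and 23 in ENR and 15, 13, 16 and 19 in EN (3.23 ± 0.13 SE, adjusted p = 2.1e-10). Its H3K27ac score was higher too, at 81, 21 and 37 in CV against 1 to 18 in ENR and EN (2.11 ± 0.54 SE, adjusted p = 0.015), while H3K4me3 overlapped between the cultures. The region 531 bp from 2610035F20Rik (chr14:122873332-122873640), nearest in protein-coding genes to the transcription factor gene Zic2, scored 49, 39, 47 and 48 in CV and 1 to 7 in ENR and EN. The Igfbp5 region (chr1:72919184-72919342), in the gene of a binding protein of insulin-like growth factors, scored 22, 18, 22 and 19 in CV and 0 to 2 elsewhere. The neighbouring intronic region (chr1:72919640-72919948) had the highest H3K27me3 of those named, 209, 150 and 237 in ENR, 66, 94 and 98 in EN and 21, 20 and 26 in CV. H3K4me3 there was 44, 44 and 29 in CV and 1 to 11 elsewhere (2.59 ± 0.53 SE, adjusted p = 0.048).

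**Figure D4:**
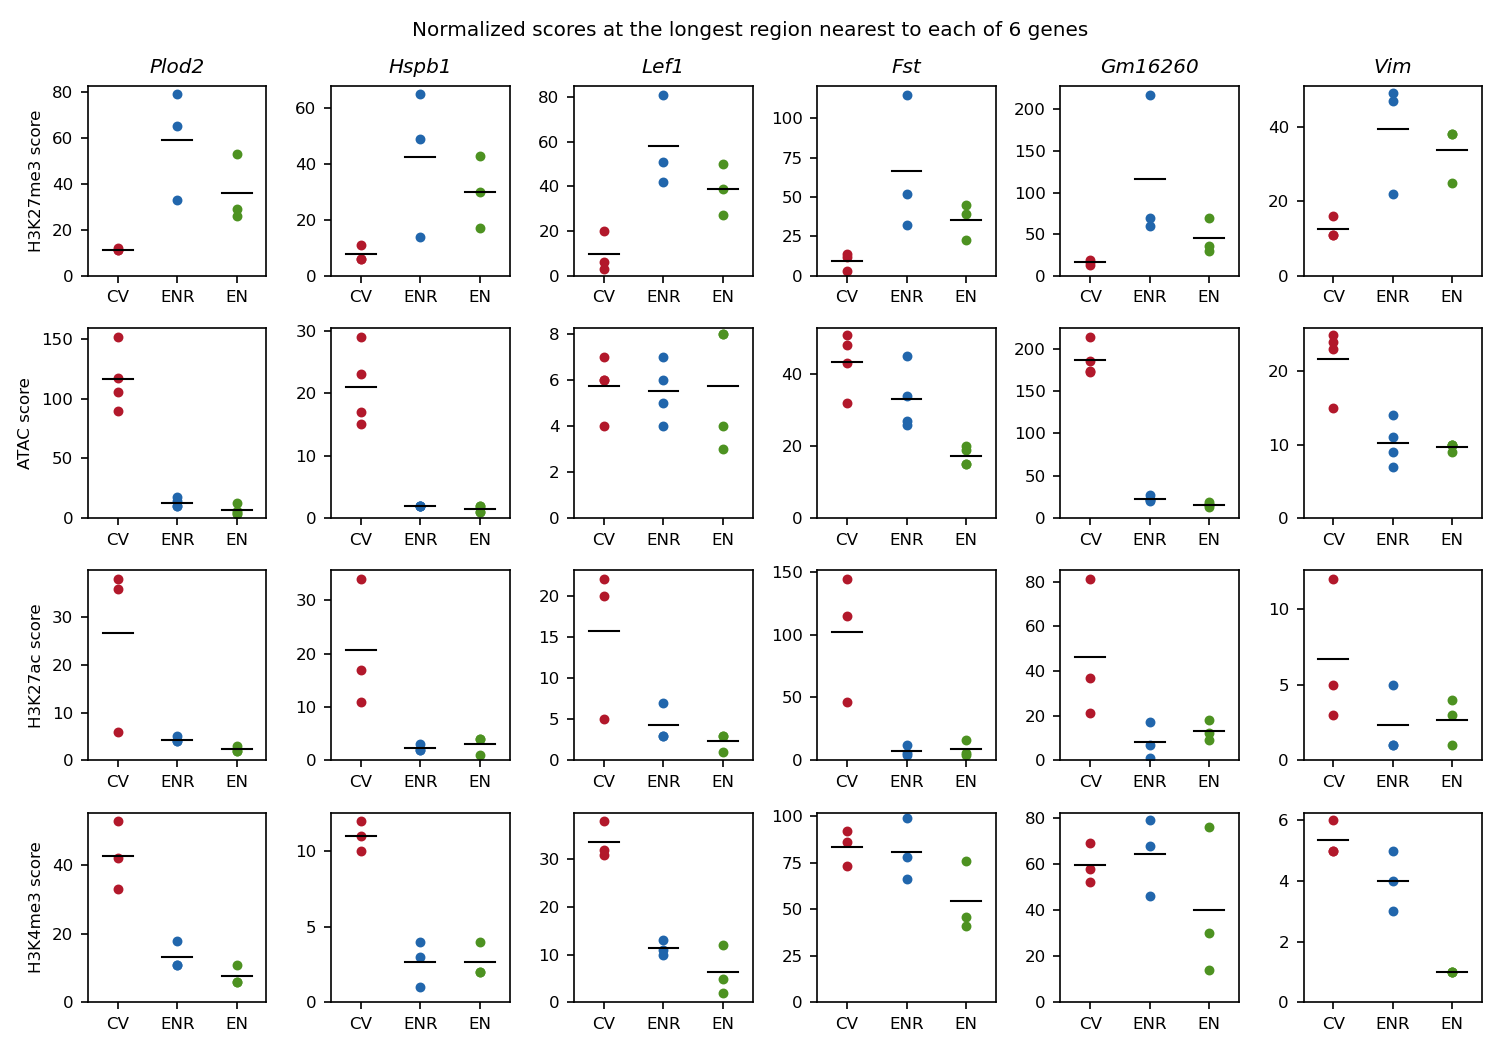
Normalized scores (y axes, separate scales starting at 0) of the longest region nearest to Plod2, Hspb1, Lef1, Fst, Gm16260 and Vim in H3K27me3, ATAC, H3K27ac and H3K4me3, by culture. Points are libraries and lines are means, and H3K27me3 is low in CV by the choice of regions. ATAC at Plod2 (90 to 152 in CV, at most 18 elsewhere) and Gm16260 (172 to 214, at most 27 elsewhere) sets CV apart from both other cultures, while ATAC at this Lef1 region overlaps between all 3.

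At Hoxc6 the difference in H3K27me3 spanned 2 regions. The one over the start site (chr15:102828505-102829633) scored 11, 2 and 16 for H3K27me3 in CV, 75, 82 and 88 in ENR and 38, 26 and 64 in EN. It had the largest H3K4me3 difference, with 31, 44 and 41 in CV, 8, 4 and 5 in ENR and 4, 5 and 8 in EN (2.60 ± 0.27 SE, adjusted p = 0.011), and ATAC (2.00 ± 0.23 SE) and H3K27ac (2.23 ± 0.50 SE) were called higher in CV as well. The intronic one (chr15:102829675-102830029), with the largest ratio of all, scored 2, 1 and 6 for H3K27me3 in CV, 89, 84 and 65 in ENR and 25, 54 and 45 in EN. Its ATAC score rose (2.05 ± 0.29 SE, adjusted p = 4e-05), but its H3K27ac values overlapped. Ypel4 (chr2:84574404-84574952) was the remaining region among the largest H3K4me3 differences, at 10, 14 and 12 in CV and 1 to 4 elsewhere.

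A large drop in H3K27me3 did not always come with such calls. After Hoxc6, the largest ratios were 13.3 at Nr4a3, 13.1 and 12.9 at neighbouring regions of Atf3, 11.7 at Rtn4rl2 and 11.0 at Rbpms. The Nr4a3 region (chr4:48059823-48060029), in an intron of a nuclear receptor gene, scored 3, 6 and 4 for H3K27me3 in CV, 56, 72 and 160 in ENR and 66, 14 and 51 in EN. Its ATAC score was 1 or 2 in CV and 0 to 4 elsewhere, and no other assay was called. Of the 2 Atf3 regions, near the gene of a stress-induced transcription factor, chr1:193008867-193009074 scored 28, 30, 35 and 33 for ATAC in CV, 11 to 18 in ENR and 5 to 15 in EN (1.39 ± 0.24 SE, adjusted p = 0.00024). The other, chr1:193009106-193009258, was called in no assay. The small Rbpms region (chr8:35042259-35042349) scored 19, 24 and 42 for H3K27me3 in ENR and at most 2 in CV, and its active marks were at 0 to 2 in every library, while ATAC passed the test (1.17 ± 0.36 SE, adjusted p = 0.021).

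Regions that were less open in CV were rare. The Shisa7 region (chr7:4787374-4788488) scored 32, 44, 37 and 37 for ATAC in CV, 74, 65, 74 and 72 in ENR and 101, 104, 80 and 78 in EN (-1.08 ± 0.12 SE, adjusted p = 2.5e-06). A region 21376 bp from Nxt2 on the X chromosome scored 15, 19, 18 and 20 in CV and 28 to 57 elsewhere (-1.03 ± 0.16 SE, adjusted p = 0.0001), and it was the only one with a call lower in CV for H3K27ac (2, 25 and 6 in CV, 20, 12 and 10 in ENR, 42, 45 and 43 in EN). Both regions thus had less H3K27me3 and less accessibility in CV, while for H3K27ac at Nxt2 the CV and ENR values overlapped, and that call was lost when any library other than CV4 was left out.

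Several loci held runs of such regions. Among loci with 4 members, the order was set by the mean ratio, a rule chosen after the values were seen. The locus of Msx3, a homeobox gene, spanned chr7:147234053-147248531 with 7 regions, of which 3 were called higher in ATAC and none in the histone marks. Gli1, the transcriptional effector of Hedgehog signalling, had 6 regions over chr10:126775962-126779600, with 3 higher in ATAC, 1 in H3K27ac and 2 in H3K4me3. Its longest region (chr10:126775962-126777388) scored 65, 83, 74 and 101 for ATAC in CV, 31, 33, 38 and 34 in ENR and 14, 16, 19 and 26 in EN, which orders the cultures EN, ENR, CV with no overlap. The start site region (chr10:126778498-126779143) scored 24, 15 and 22 for H3K27ac in CV, 1 or 2 in ENR and 9, 2 and 12 in EN (2.26 ± 0.54 SE, adjusted p = 0.0083).

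The Msx1 locus (chr5:38217061-38223805) had 5 regions, with 4 called higher in H3K4me3 and 3 in ATAC. At chr5:38221723-38222002, ATAC was 26, 30, 24 and 31 in CV, 3 or 4 in ENR and 1 to 5 in EN (2.77 ± 0.26 SE, adjusted p = 5.4e-07). At chr5:38223567-38223805, H3K4me3 was 6, 8 and 8 in CV and 0 or 1 elsewhere. At the LIM homeobox gene Lhx6 (chr2:35946279-35949680) all 4 regions were higher in ATAC. The longest (chr2:35946279-35947537) scored 111, 86, 92 and 103 in CV, 16, 20, 16 and 24 in ENR and 19, 9, 14 and 13 in EN (2.55 ± 0.17 SE, adjusted p = 1.8e-08), and H3K27ac and H3K4me3 were called there too.

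The remaining loci held 4 or 5 regions each. Hic1, a zinc finger repressor gene, had 5 regions over chr11:74980547-74986410 with 1 call, in ATAC. Fut2, a fucosyltransferase gene of the intestinal epithelium, had 4 regions over chr7:52920243-52923374 with 2 calls in ATAC and 1 in each histone mark. The region at chr7:52921063-52921327 scored 7 for H3K4me3 in each CV library and 0 or 1 elsewhere, and 28, 11 and 10 for H3K27ac in CV against 1 to 4 elsewhere. Trerf1 had 4 regions over chr17:47275259-47277754, 2 of them higher in ATAC and 1 in H3K27ac. At chr17:47276650-47277102, ATAC was 31, 27, 32 and 35 in CV, 4 or 5 in ENR and 2 to 12 in EN.

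Between ENR and EN, none of these regions was called with limma in the mark itself. The rule used the same ENR and EN scores, through their mean and their distance from CV. The direction, calls and counts that follow are therefore a description and not a test of these regions. H3K27me3 was lower in EN by the fit at 454 of 593 regions, with a median log2 difference of -0.43, while the median over all regions was 0.44. With limma, 0 regions were called higher (background 0%) and 0 lower (background 0.0127%). At an unadjusted p under 0.05, 1 was higher (background 9.47%) and 47 lower (background 2.14%). All 3 EN libraries lay below all 3 ENR libraries at 126 regions (21.2%, background 2.64%) and above at 11 (background 11.4%). These backgrounds cover all regions, which were not chosen for a high score, so the gap to them is not a result about these regions. The other regions marked in ENR and EN also had lower medians in EN, at 23, 22 and 25, than in ENR, at 28, 29 and 26.

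The medians of the other assays did not share 1 sign between ENR and EN, but each lay below the median of all regions. Relative to all regions, the differences from ENR to EN were -0.15 in ATAC, -0.70 in H3K4me3 and -0.06 in H3K27ac. These comparisons share the ENR and EN libraries with the comparisons of CV. ATAC was called lower in EN at 71 of 592 regions (background 12.5%) and higher at 10 (background 11.6%), so the share lower was near the background and the share higher was below it, with a median of -0.15 where all regions had -0.01. H3K4me3 was lower at 29 of 582 (4.98%, background 0.7%) and higher at 7 (background 5.48%), with a median of -0.26 where all regions had 0.44. H3K27ac was lower at 4 regions (background 0.353%) and higher at 0 (background 1.22%), with a median of 0.18 where all regions had 0.25. At an unadjusted limma p under 0.05, 28 of 593 were higher in EN (background 10.4%) and 14 lower (background 2.68%). The 4 regions called lower, named after their values were seen, lay nearest to Tifa, Kif26b, Celsr1 and Gm10083. The Tifa region (chr3:127492290-127494101) scored 113, 151 and 126 for H3K27ac in CV, 50, 33 and 74 in ENR and 6, 11 and 15 in EN (-2.20 ± 0.39 SE from ENR to EN, limma adjusted p = 0.0016). The H3K27ac count was 1 to 2 without CV5, ENR2, ENR4 or any 1 of the EN libraries. The H3K4me3 count lower in EN was 14 without ENR1, 18 without ENR2, 11 without ENR4, 68 without EN1 and 18 without EN2, and the count higher was 12 without CV2 and 13 without EN2.

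Hnf4g, a transcription factor of enterocytes, was measured in 1 library per culture, so no test between cultures was possible. The regions held 656 of 84340 reads in CV (0.778%, exact 95% binomial interval 0.720% to 0.839%), 3725 of 352600 in ENR (1.06%, 1.02% to 1.09%) and 16847 of 1816497 in EN (0.927%, 0.914% to 0.941%). The intervals cover counting error only. The regions are 0.628% of the table, and they are longer than most (median 335 bp, against 220 bp), which the shares do not correct for. A read was found at 213 of them in CV (35.9%, against 25.8% of all regions), at 438 in ENR (73.9%, against 57.6%) and at 540 in EN (91.1%, against 82.6%). The number of reads in all regions differed between the libraries in the same order, and its part in these shares was not tested.

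RNA could be followed for only part of the nearest genes. The 593 regions had 418 nearest genes, of which 88 were in the RNA table, since the authors' index held only transcripts whose protein had been quantified by mass spectrometry. The Hox genes, Msx1, Msx3 and Gli1 were therefore not analysed here at the RNA level. With edgeR's quasi-likelihood test, at an adjusted p under 0.01 and at least 2-fold, 47 of the 92 transcripts tested (51.1%), of 46 genes, were higher in CV than in ENR and EN, where 12.2% of all 9288 transcripts were. Lower in CV were 2, Vim and Cth (background 9.14%). The median log2 difference was 1.34 near these regions and 0.06 over all transcripts. In 50 transcripts all CV libraries lay above all others (background 20.7%) and in 8 below (background 17.9%). Of the transcripts whose gene starts within 500 bp of such a region, 35 of 49 were called higher in CV, and of the others 12 of 43. A gene with no RNA counts in ENR and EN could be tested only through its RNA in CV. How far this selection raised the shares called higher in CV was not tested.

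Most of the genes with the largest rises were near the detection limit outside CV. Values are CPM, counts scaled to the library size after TMM. The SE of an RNA difference is its absolute log2 value divided by the square root of edgeR's F value. It is an approximation worked back from the test and can be too small where counts are low. Plod2 (NM_001142916.1) had 120, 125, 129 and 107 CPM in CV, 0.896, 0.327, 0.456 and 1.01 in ENR and 0 to 0.214 in EN, the latter from at most 1 count. CV was far above both, and the fitted log2 difference was 8.57 (edgeR adjusted p = 1.5e-16). The ratio of pooled counts per library size, CV to ENR and EN, was 277 (exact 95% interval 184 to 438, counting error only). Hspb1 (NM_013560.2) had 118 to 158 counts per CV library (18.7 ± 2.06 CPM, SD, n = 4), while 1 count was seen in all ENR and EN libraries together. The ratio was 992, but its counting interval of 177 to 39238 shows how little that single count fixes it.

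The other 8 of the 10 largest rises ran from the cytoskeleton to signalling. Fyn (NM_001122892.1), a Src family kinase, had 20.1, 21.2, 22.8 and 21.9 CPM in CV and at most 0.503 elsewhere, with a ratio of 114 (interval 61.8 to 240). Crip2, a LIM domain protein, had 19.5 ± 2.89 CPM (SD, n = 4) in CV and at most 2 counts in any other library (ratio 130, interval 65.8 to 304). Myh10, a non-muscle myosin heavy chain, had 23.8 ± 1.27 CPM in CV, 0.133 ± 0.105 in ENR and 0.413 ± 0.102 in EN. Tubb6, a beta-tubulin, had 23.2 ± 2.44, 0.279 ± 0.179 and 0.574 ± 0.385 CPM in the same order. In none of these did a CV library come near the others.

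Tesc, a calcium-binding protein, had 103 to 106 counts per CV library and at most 2 elsewhere (ratio 104, interval 49.9 to 259). Dpysl5, a protein of neuronal growth cones, had 7.34 ± 0.996 CPM in CV, 0.326 ± 0.154 in ENR and 0 counts in EN. Pltp, the phospholipid transfer protein, had 6.71 ± 1.07 CPM in CV and at most 2 counts elsewhere (ratio 59.3, interval 26.8 to 164). Lef1 (NM_001276403.1), a DNA-binding effector of Wnt signalling, had 23, 19, 15 and 20 counts in CV and 1 count in each of 2 other libraries (ratio 66.5, interval 17.8 to 559).

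Regions at Lef1, Fyn, Crip2 and Myh10 also differed in some of the other assays. Those at Tubb6, Tesc, Dpysl5 and Pltp are not described here. At Lef1, the region 98 bp from the start site (chr3:130813065-130813291) scored 19, 17, 11 and 18 for ATAC in CV and 2 to 5 elsewhere (1.99 ± 0.25 SE, adjusted p = 1e-05). The exonic one (chr3:130814253-130814844) scored 38, 31 and 32 for H3K4me3 in CV, 11, 13 and 10 in ENR and 2, 5 and 12 in EN (1.99 ± 0.40 SE, adjusted p = 0.046), whereas its ATAC scores overlapped. Fyn (chr10:39089214-39090540) had 163, 145, 131 and 128 for ATAC in CV, 53 to 68 in ENR and 32 to 47 in EN (1.57 ± 0.12 SE, adjusted p = 5.9e-08). Crip2 (chr12:114378254-114379910) had 57, 84 and 85 for H3K27ac in CV and 12 to 20 elsewhere (2.13 ± 0.36 SE, adjusted p = 0.00022). Myh10 (chr11:68504815-68505531) passed in ATAC (1.38 ± 0.14 SE, adjusted p = 1.4e-06), while its H3K27ac values overlapped.

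Not all of the 47 were silent outside CV. In 9 of them each ENR and EN library had at most 3 counts, compared with 50 of the 1131 called higher in CV among all transcripts. In 5 the ENR mean was more than 50% of the CV mean, which was not counted over all transcripts. Mecom, a zinc finger transcription factor gene, had 165 CPM in CV, 67.6 in ENR and 39.6 in EN, and both transcripts of Nap1l1, a nucleosome assembly protein, were close in CV and ENR (113 ± 2.03 and 73.1 ± 1.21 CPM for XM_006513893.3) and low in EN (2.54 ± 0.332). Npl, which acts on sialic acid, had 143 ± 8.19 CPM in CV, 1.67 ± 0.515 in ENR and 9.32 ± 0.339 in EN. Its region sits exactly at the ratio threshold.

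Vim, the intermediate filament gene with 5 regions over chr2:13495164-13497272, went against the rest. Its RNA (NM_011701.4) had 3.37, 2.67, 2.78 and 3.01 CPM in CV, 7.68, 8.34, 8.66 and 7.17 in ENR and 20.8, 26.1, 20.5 and 25.9 in EN, so the cultures were ordered without overlap (-2.19 ± 0.13 SE in CV, edgeR adjusted p = 3.8e-10). In its regions H3K27me3 was lowest in CV by the rule, ATAC was called higher in CV at 2, H3K4me3 at 2 and H3K27ac at 1. The start site region (chr2:13495164-13495565) scored 24, 25, 15 and 23 for ATAC in CV, 9, 11, 14 and 7 in ENR and 9 or 10 in EN (1.04 ± 0.20 SE, adjusted p = 0.00064). The start site region was thus more open in the culture with the least Vim RNA. Cth, an enzyme of cysteine synthesis 15449 bp from its region, had 70.3 ± 3.69 CPM in CV, 112 ± 3.63 in ENR and 365 ± 19.4 in EN (-1.52 ± 0.04 SE), and ATAC in that region was also lower in CV (-1.12 ± 0.20 SE, adjusted p = 0.00029).

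Markers of intestinal and other cell types moved between the cultures. Given as the lowest and highest summed CPM over libraries, stem cell markers (7 of 7 genes tested) were at 634 to 684 in CV, 1766 to 1918 in ENR and 42.0 to 49.5 in EN. Most of the gap between CV and ENR was Olfm4, with a mean of 10.9 CPM in CV and 1229 in ENR. In CPM, Sox9 and Cd44 were higher in every CV library than in every ENR library, and Lgr5, Ascl2, Axin2 and Smoc2 were lower. In TPM, which is corrected for transcript length, the CV and ENR values of Ascl2, Axin2 and Smoc2 overlapped. Enterocyte markers (8 of 8) were at 5852 to 6122 in CV, 7198 to 7985 in ENR and 43015 to 44984 in EN. Goblet cell markers (4 of 5) were at 797 to 895, 1609 to 1755 and 8119 to 8949, enteroendocrine markers (4 of 5) at 24.3 to 36.9, 529.9 to 550.9 and 1448 to 1915, and Paneth cell markers (5 of 5) at 2548 to 2878, 4020.0 to 4272 and 1510.0 to 1723. The summed CPM of the secretory lists and of the enterocyte list was thus lower in every CV library than in every ENR library. CPM is not corrected for transcript length, and for the enterocyte list the order of CV and ENR depends on this. In TPM, which is corrected for it, Fabp1 had a mean of 16366 in CV and 6740 in ENR, against 336 and 1092 for Sis. The summed CPM of the Paneth list was lowest in EN. The genes of a list did not all move alike. In CPM, Fabp1, Vil1 and Krt20 were higher in every CV library than in every ENR library. Sis, Apoa1, Anpep and Ptk6 were lower, and Alpi overlapped. Ptk6 overlapped as well in TPM. In the Paneth list Mmp7 was higher in every CV library than in every ENR library, while Defa6 and Lyz1 were lower. For Lyz1 this held in CPM only, and its TPM values overlapped. The summed CPM of the mesenchymal list, of which 3 of 5 genes were tested, was 3.45 to 4.72 in CV, 7.42 to 8.84 in ENR and 20.9 to 26.3 in EN. Most of it was Vim itself, and Col1a1 had 0.850 ± 0.249, 0.145 ± 0.17 and 0.179 ± 0.148 CPM. The immune list, with 2 of 5 genes tested, summed to 3.37 to 5.96 in CV, 6.91 to 8.51 in ENR and 15.0 to 19.3 in EN, and none of the 3 endothelial markers was in the table. Tuft cell markers summed to 0.809 to 2.41 in CV, 27.9 to 31.3 in ENR and 65.5 to 88.1 in EN. Their part in the results at Vim, and that of the differing cell mixtures elsewhere, was not tested.

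**Figure D5:**
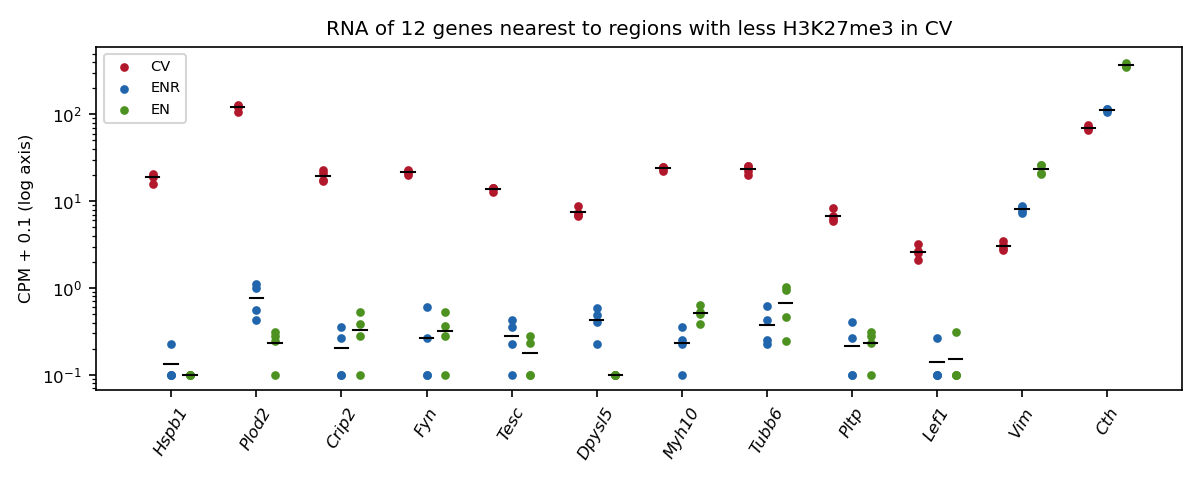
CPM + 0.1 (log axis) of the 10 largest rises and the 2 falls in CV among transcripts nearest to the regions, with a point for each of 4 libraries per culture and a line at the mean. The rises lie at 1.99 to 129 CPM in CV and near the bottom of the axis in ENR and EN, where many libraries have 0 counts, and Vim and Cth are ordered CV, ENR, EN.

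From ENR to EN, 10 transcripts near the regions rose (background 13.1%) and 19 fell (background 17%). The largest rises were in Ccdc92, Npl, Synpo, Cth and Spats2l. Synpo, an actin-associated protein with 4 regions, had 7.70 ± 0.335 CPM in CV, 4.29 ± 0.992 in ENR and 20.6 ± 1.98 in EN (2.25 ± 0.15 SE, edgeR adjusted p = 9.4e-10). Ccdc92 rests on at most 3 counts in ENR and EN. The largest falls were in both transcripts of Nap1l1, Dpysl5, the histone gene Hist3h2ba and Fmnl3. Hist3h2ba, with 3 regions, had 34.3 ± 5.64 CPM in CV, 7.30 ± 1.37 in ENR and 0.434 ± 0.301 in EN, so it followed the order of the cultures from CV to EN.

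Few of the genes that write, read and erase the mark passed the fold limit between CV and the other cultures. Of 11 subunits of Polycomb repressive complex 2, 9 were in the table and none passed it, with log2 differences from -0.56 (Ezh1) to 0.69 (Suz12). Ezh2 had 37.8 ± 3.57 CPM in CV, 49.4 ± 3.18 in ENR and 24.2 ± 1.61 in EN. In EN 3 of the 9 fell from ENR, namely Ezh2, Rbbp4 and Rbbp7. Of 19 subunits of complex 1, 13 were tested, and Cbx6 alone was called higher in CV (1.30 ± 0.07 SE, edgeR adjusted p = 8.3e-11). Its RNA was at 50.6 ± 3.77 CPM in CV, 45.6 ± 2.73 in ENR and 9.17 ± 1.12 in EN, so CV and ENR overlapped and EN was low. The demethylase Kdm6b had 9.51 ± 0.684 CPM in CV, 14.9 ± 1.07 in ENR and 35.3 ± 3.15 in EN and was called lower in CV (-1.27 ± 0.09 SE), and Kdm6a had a difference of -0.84 ± 0.05 SE, under the fold limit. Lower in CV was also the acetyltransferase Crebbp (-1.46 ± 0.06 SE), with -0.72 ± 0.07 SE for Ep300. Among the class I deacetylases, the targets of valproic acid, Hdac1 was called higher in CV (1.16 ± 0.06 SE), and Hdac2, Hdac3 and Hdac8 had differences of 0.97, 0.64 and 0.02. Levels of RNA do not give the activity of these enzymes.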

How the data were processed

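All choices of regions and gene lists were made with earlier results of these data known. For regions, the authors deposited a score, the read count per region normalized between libraries by a method not given in the sources used here and rounded to whole numbers. Their reads had been aligned to mm9 with BWA, filtered of duplicates with Picard and called into a union of peaks with MACS2 2.0, and H3K27me3 was counted in extended windows (1000 bp by the column names). The Hnf4g values, as deposited, are unscaled read counts. For RNA the authors deposited expected counts and TPM per transcript from kallisto (0.43.0 in the submitters' processing notes, which also name DESeq2).

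Regions above 0 in at least 3 libraries were tested with limma 3.58.1 on log2(score + 1), with the spread as a trend on the mean and a fit of all 3 cultures per assay. Expected counts were rounded, and transcripts above 0 in at least 4 libraries were tested with edgeR 4.0.16 (TMM, quasi-likelihood, common dispersion 0.00475) in R 4.3.3. P-values were adjusted over all regions or transcripts, with calls at 0.05 for regions and 0.01 and 2-fold for RNA, and both steps were tested on simulated data. The contrasts were CV minus the mean of ENR and EN, and EN minus ENR. The number of libraries, 3 per histone mark, limits the precision.

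Start sites and exons were taken from GENCODE vM1 on NCBIM37, and sequences from that genome. Whether region starts count from 0 or 1 is not stated, so coordinates are given as deposited. Named are the 8 loci with most regions, the 6 largest ratios, the regions at the ratio threshold, the 4 largest called and non-overlapping differences per assay and direction, regions nearest to a listed marker gene, and, for RNA, the 10 largest rises and falls in CV and 5 in EN. Regions were merged into loci within 10 kb. Same-numbered libraries were not treated as paired. A further 10 histone mark libraries in the list of samples and 2 RNA-seq libraries (Hnf4g knockout and wild type in ENR) were not used here. Alternatives changed 1 choice at a time: the pseudocount, filter, normalization, trend, threshold, block, distance, test and each library left out. Python 3.11.15, numpy 2.4.6, pandas 2.3.3, scipy 1.17.1 and pysam 0.24.0 were used.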

Additional observations from a re-analysis of the deposited data

Results flagged for a closer look

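Among 62 groups of 4 libraries of the named regions and transcripts, 3 held a library far from the others by Dixon's criterion, and chance alone gives about 1 in 20. For Nap1l1 (NM_015781.4) in EN, the gap of the outlying library was 0.978 of the range, with 1.74, 1.71, 3.03 and 1.73 CPM, so the third library stood above the rest, all far below the CV and ENR values. For the region near 2610035F20Rik the ATAC scores in ENR were 7, 5, 5 and 5 (gap of 1.0), and for the Igfbp5 region they were 2, 2, 1 and 2 (gap of 1.0). Both of the latter are steps of 1 or 2 in low whole-number scores. Groups in which no library exceeded 3 counts were not examined.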

How the results depend on the processing

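Over 19 counts (calls among the 593 regions, calls among nearby transcripts and the number of regions itself), 241 of 317 alternative values stayed within 1.5 times the reported value, and the median difference kept its sign in 300 of 302; the H3K27ac median between EN and ENR was -0.07 under quantile normalization, against 0.18 as reported. The cause was not tested for any of the values that follow. At the study's stricter thresholds ATAC calls were 57 higher and 1 lower in CV and 1 higher and 2 lower in EN, H3K27ac calls 13 and 0 in CV with 0 lower in EN, and H3K4me3 calls 0 and 0 in both. Without the trend, 0 H3K27ac regions were called higher or lower in CV or lower in EN. Quantile normalization gave 58 H3K27ac regions higher in CV, and 0 H3K4me3 regions lower in CV, 0 higher in EN and 49 lower in EN. A pseudocount of 5 gave 1 H3K27ac region and 4 H3K4me3 regions higher in EN. For RNA, without the fold limit 10 transcripts were lower in CV and 16 higher in EN; with start sites within 5 kb 1 was lower in CV, and within 500 bp 1 was lower in CV, 6 higher in EN and 12 lower in EN; limma on log2(TPM + 1) gave 5 higher and 10 lower in EN. A ratio of at least 4 kept 276 regions, and equal sums per library gave 894.

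Same-numbered libraries deviated together weakly in ATAC (mean correlation 0.170, lowest 0.0695, 12 pairs) and not in the other assays, so the numbers were not taken as pairing. With the replicate number as a block, H3K27ac had 0 regions higher and 0 lower in CV and 0 lower in EN, and H3K4me3 had 0 and 0 in CV and 14 lower in EN; the other counts stayed within 1.5 times.

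Leaving out each library in turn gave 567 to 1090 regions, of which at least 511 were among the 593. For CV, higher and lower, ATAC gave 244 to 296 and 6 to 10, H3K27ac 34 to 68 and 0 to 1, H3K4me3 16 to 166 and 0 to 2, and RNA 46 to 48 and 2 to 3. For EN against ENR, ATAC gave 7 to 14 and 51 to 73, H3K27ac 0 to 2 and 1 to 4, H3K4me3 5 to 13 and 11 to 68, RNA 8 to 10 and 16 to 19, and H3K27me3 0 and 0. Of 8883 values of named regions and transcripts under the alternatives, 8435 stayed on their side of the threshold, 374 lost the call and 74 gained it. Of the values called as reported, 0 changed direction. Direction was not compared for values that were not called. Low scores limit what could be seen, since the median score of these regions in ENR and EN libraries was only 2 to 5 in ATAC and the active marks.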
